A study of Mus musculus with 7 samples.

Results

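HDAC1 peaks that lie between genes, but within 50 kb of the transcription start site (TSS) of a protein-coding gene, were examined in the limb buds of mouse embryos. The regions were chosen by their coordinates from a list of 15347 HDAC1 peaks in the mouse genome build mm10. A peak was kept when it was shorter than 800 bp, shared no base with the body of a protein-coding gene, and shared no base with a window around any TSS, 2 kb to its upstream and 1 kb to its downstream side, in the GENCODE M21 basic annotation. Its nearest edge also had to lie 50000 bp or less from a protein-coding TSS. Of the 15347 peaks, 11266 were shorter than 800 bp, 3522 of these lay outside every TSS window, and 1546 of those lay outside coding gene bodies. The distance limit left 730 peaks, called intergenic peaks near genes in what follows. The other 816 lay beyond 50 kb and are set beside them, as are 1546 peaks of the same length limit that lay in introns outside every TSS window.

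The peaks came from 4 HDAC1 ChIP-seq samples and 3 inputs, sheared chromatin that saw no antibody. All were taken from forelimb and hindlimb buds of Swiss Webster mice at E11.5 (40 to 44 somites), pooled from 3 litters according to the sample labels. All embryos were wild-type and untreated, so the list describes binding in a normal limb bud and holds no comparison of conditions. Forelimb and hindlimb, their anterior and posterior parts and all their cell types were pooled, and a peak cannot be assigned to any of them. A single list was called from the 4 ChIP samples, with no value per sample and no height, read number or false discovery rate per peak. Such values per peak from elsewhere in the study were not used here. No difference given here therefore has a replicate error, and the depth behind a peak is not known from the list. Intervals are 95% Wilson intervals for shares and exact Poisson intervals for densities. They cover counting error over peaks only, peaks are not biological replicates, and no test was run.

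HDAC1 is a histone deacetylase that removes acetyl groups from histone tails. It has no DNA-binding domain that reads a sequence, and works in complexes such as NuRD, SIN3 and CoREST, which transcription factors bring to chromatin. Most HDAC1 binding in dividing cells is found at active promoters. Between genes, the same complexes are known at enhancers, the distal elements through which limb patterning genes of the HAND, HOX, MSX and TBX families are regulated. Enhancers can skip the nearest gene, so a nearest gene below is an address and not a shown target.

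The sequences of the best placed peaks are shown as examples, and the full REST motif marked in them was rare among the 730. Position means the place of a peak in the order of the deposited table, with 1 the best placed. This order is taken to be the authors' ranking, and the value they ranked by is not in the table. The 3 intergenic peaks near genes with the best positions were those nearest to Kcnk9, Igsf21 and Ccnc. The Kcnk9 peak, at position 38, lay 22160 bp upstream of this gene for a potassium channel, and its central 300 bases (mm10, chr15:72568575-72568874, plus strand) hold 2 copies of the REST motif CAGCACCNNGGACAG. REST is a zinc finger repressor of neuronal genes that recruits HDAC1 complexes. The capitals in the Kcnk9 sequence mark both REST matches, read here on the opposite strand, the first of them lengthened by the left arm of the motif, TTCAGCACC, and farther right the SOX motif ACAATG, also on the opposite strand.
Kcnk9: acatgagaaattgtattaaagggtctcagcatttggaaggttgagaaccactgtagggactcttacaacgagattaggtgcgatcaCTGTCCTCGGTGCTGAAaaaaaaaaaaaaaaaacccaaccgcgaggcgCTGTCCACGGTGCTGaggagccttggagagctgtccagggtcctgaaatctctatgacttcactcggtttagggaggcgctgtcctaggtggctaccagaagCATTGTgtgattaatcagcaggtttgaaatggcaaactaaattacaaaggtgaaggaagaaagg
The Igsf21 peak, at position 154, lay 12016 bp upstream of a gene for a synaptic adhesion protein. The Ccnc peak, at position 222, lay 15102 bp upstream of the gene for cyclin C, a subunit of the Mediator kinase module. Neither holds a full REST match, but both repeat the right arm of that motif, GGACAG. In the central 300 bases of the Igsf21 peak (chr4:140258975-140259274, plus strand) the arm occurs 9 times, and in those of the Ccnc peak (chr4:21712225-21712524, plus strand) 3 times. Capitals mark these copies on either strand.
Igsf21: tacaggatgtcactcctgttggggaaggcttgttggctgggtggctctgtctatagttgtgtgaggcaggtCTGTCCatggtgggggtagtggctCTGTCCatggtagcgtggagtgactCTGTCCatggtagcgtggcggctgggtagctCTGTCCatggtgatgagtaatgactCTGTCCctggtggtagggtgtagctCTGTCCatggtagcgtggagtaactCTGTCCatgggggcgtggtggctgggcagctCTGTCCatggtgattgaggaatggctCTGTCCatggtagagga
Ccnc: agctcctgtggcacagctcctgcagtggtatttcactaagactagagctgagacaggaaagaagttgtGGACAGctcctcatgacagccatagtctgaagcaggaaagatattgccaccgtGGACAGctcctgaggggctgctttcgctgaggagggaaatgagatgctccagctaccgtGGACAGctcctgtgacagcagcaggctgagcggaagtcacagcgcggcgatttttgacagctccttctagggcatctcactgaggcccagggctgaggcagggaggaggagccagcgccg
Psmb2 encodes a subunit of the proteasome, and the peak 21831 bp upstream of it, at position 998, is the other of the 10 best placed with a REST match. Id4 encodes an inhibitor of bHLH factors, and the peak 33079 bp upstream of it was at position 1457. In both sequences the capitals mark every match to the motifs searched, among them the CRE motif TGACGTCA in each (Psmb2, chr4:126655450-126655749. Id4, chr13:48227750-48228049. Both on the plus strand).
Psmb2: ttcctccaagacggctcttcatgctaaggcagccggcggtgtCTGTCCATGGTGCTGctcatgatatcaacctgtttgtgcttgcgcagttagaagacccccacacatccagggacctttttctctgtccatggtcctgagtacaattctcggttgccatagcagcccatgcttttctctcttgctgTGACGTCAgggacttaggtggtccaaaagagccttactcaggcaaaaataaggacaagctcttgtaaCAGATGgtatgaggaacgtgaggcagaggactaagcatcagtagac
Id4: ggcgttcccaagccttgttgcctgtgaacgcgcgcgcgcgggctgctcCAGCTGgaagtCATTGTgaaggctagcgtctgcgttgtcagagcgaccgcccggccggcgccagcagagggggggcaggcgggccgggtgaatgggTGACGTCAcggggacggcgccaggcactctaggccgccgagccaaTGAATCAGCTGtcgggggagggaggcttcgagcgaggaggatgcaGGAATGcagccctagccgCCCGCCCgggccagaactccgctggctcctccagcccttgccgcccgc
The peak nearest to Tcf12, a bHLH factor gene, shows how rich in G and C some of these sequences are. It stood at position 1735 (centre at chr9:72133000-72133299, plus strand) and had a GC content of 76.4%. Capitals mark an E-box, CAGCTG, and a GC box, GGGCGGG.
Tcf12: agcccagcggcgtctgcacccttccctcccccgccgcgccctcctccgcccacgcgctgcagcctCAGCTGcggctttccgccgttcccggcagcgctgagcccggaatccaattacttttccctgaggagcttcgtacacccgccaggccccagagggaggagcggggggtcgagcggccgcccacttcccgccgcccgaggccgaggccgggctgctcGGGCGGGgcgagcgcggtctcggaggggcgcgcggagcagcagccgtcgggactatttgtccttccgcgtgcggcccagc
GLI factors are the transcriptional effectors of Hedgehog signalling, and 5 intergenic peaks near genes had the GLI motif GACCACCCA in the 400 bases around their centre, 4 of them inside the peak itself. The best placed of these was nearest to Foxp2, a forkhead factor gene (position 6090, centre at chr6:14898225-14898524, plus strand). The shortest with the match inside the peak was nearest to Pim1, a kinase gene (position 10372, whole peak at chr17:29451100-29451299, plus strand). Both were picked for display after their values were seen. The capitals mark the GLI match and, before it in Foxp2, a GC box, or after it in Pim1 the TEAD motif GGAATG, with both Pim1 matches on the opposite strand.
Foxp2: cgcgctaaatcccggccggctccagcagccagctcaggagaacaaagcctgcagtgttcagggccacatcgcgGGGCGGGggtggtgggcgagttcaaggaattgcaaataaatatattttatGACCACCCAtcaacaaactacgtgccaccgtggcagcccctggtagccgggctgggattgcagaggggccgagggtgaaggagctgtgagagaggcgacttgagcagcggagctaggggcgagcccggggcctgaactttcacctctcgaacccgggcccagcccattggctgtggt
Pim1: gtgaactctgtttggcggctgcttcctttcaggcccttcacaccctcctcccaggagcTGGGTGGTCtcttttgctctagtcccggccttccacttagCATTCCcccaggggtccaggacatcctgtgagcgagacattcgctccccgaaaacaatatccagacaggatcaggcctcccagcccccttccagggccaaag

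Intergenic peaks near genes lay on the upstream side of the nearest gene in most cases, but this followed the amount of sequence there. Of the 730 peaks, 482 were upstream (66.0%, interval 62.5 to 69.4%) and 248 downstream (34.0%) of their nearest coding TSS. The background was taken as every base of the genome that met the same conditions of position, called eligible bases (465 Mb in all). Of these, 70.7% lay upstream, because gene bodies take up the downstream side. Per eligible base the downstream side was thus the denser, with 1.82 peaks per Mb (interval 1.60 to 2.06) against 1.47 upstream (interval 1.34 to 1.60). The sides do not draw on the same genes, because downstream bases are eligible only past the end of a gene. Near the TSS only short genes provide them, and from 5 to 10 kb they came to 17.3 Mb, against 57.6 Mb upstream. Side and set of genes cannot be told apart here. Beyond 50 kb, 400 of 816 peaks (49.0%) were upstream.

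The downstream side was denser in each distance bin, and by most between 5 and 10 kb from the TSS. There, 51 downstream peaks gave 2.95 per Mb (interval 2.19 to 3.87), against 1.22 per Mb for 70 upstream peaks (interval 0.948 to 1.54). These intervals do not overlap. Within 5 kb the densities were 3.00 per Mb for 126 upstream peaks and 3.13 per Mb for 26 downstream peaks, with overlapping intervals. From 10 to 20 kb the density was 1.21 per Mb upstream and 1.66 downstream, and from 20 to 50 kb it was 1.27 and 1.5, where the intervals also overlapped. Peaks of one gene share an address, and the 51 downstream peaks belonged to 37 genes, of which 9 had more than 1. Counted once per gene, the density was 2.14 genes per Mb downstream and 1.11 upstream. The genes with most of these peaks were Ptf1a, which encodes a bHLH factor (4 peaks), followed by Msx1, Twist1 and 1700067P10Rik with 3 each.

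**Figure D1:**
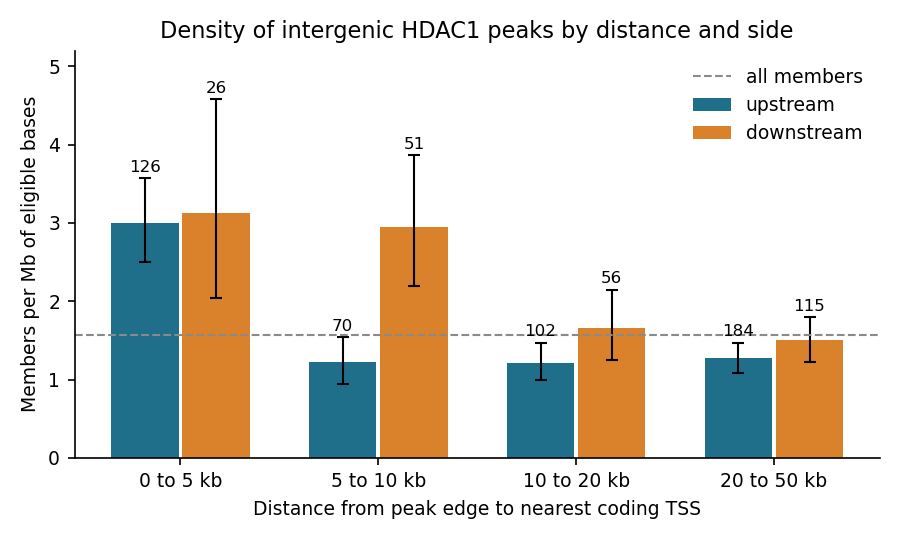
Intergenic HDAC1 peaks near genes per Mb of eligible bases, by distance from the peak edge to the nearest coding TSS and by side. Bars give the density, error bars the exact 95% Poisson interval, numbers the peaks, and the dashed line the density over both sides and all distances (1.57 per Mb). Downstream bars at 5 to 10 kb reach 2.95 per Mb, against 1.22 upstream.

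The median distance to the nearest coding TSS was 14925 bp, with quartiles of 6320 and 28937 bp and a range from 1114 to 49589 bp. Within 5 kb lay 152 peaks (20.8%), on 10.8% of the eligible bases. With respect to the genes on both sides, 205 peaks (28.1%) lay in gaps between genes that start towards the gap from both ends (30.6% of the eligible bases) and 398 (54.5%) in gaps between genes of the same direction (55.0%). The 127 peaks (17.4%, interval 14.8 to 20.3%) in gaps between converging gene ends stood on 14.2% of the bases, a share below that interval.

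The limits of the rule cut through a continuous range of peaks. The 3 farthest members lay 49355 to 49589 bp from a TSS, and the next 3 peaks outward, left out by the rule, 50053 to 50095 bp. The 13 peaks of 750 bp were kept, with a median position of 8412, and the 11 of 800 bp at otherwise matching places were left out, with a median position of 6468.

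Density also differed between chromosomes. It was highest on chromosome 11, with 64 peaks or 2.73 per Mb (interval 2.1 to 3.49), and on chromosome X it was 0.254 per Mb, with 9 peaks (interval 0.116 to 0.482). Chromosome 3 had 17 peaks or 0.692 per Mb. No peak was found on the 12.2 Mb of chromosome Y, which allows up to 0.303 per Mb. The whole list held 1221 peaks on chromosome 11, 729 on chromosome 3, 306 on chromosome X and 6 on chromosome Y. Intergenic peaks near genes made up 5.24% of the listed peaks on chromosome 11, 2.33% on chromosome 3 and 2.94% on chromosome X. By this share chromosome 11 was not the highest, as chromosome 17 had 6.12%.

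Genes with an intergenic peak were more often bound at their promoter as well. A coding gene was counted as bound when an HDAC1 peak of any length overlapped the same window around any of its coding TSSs. This held for 9630 of 21851 coding genes (44.1%). Of the 730 intergenic peaks near genes, 483 (66.2%, interval 62.7 to 69.5%) had such a gene as their nearest. By eligible bases the background was 39.9%, and it differed between the sides. On the upstream side the share was 68.0% of peaks against 44.2% of bases, and on the downstream side 62.5% against 29.3%. It was 75% within 5 kb and 66.6% from 20 to 50 kb, where 36.0% and 42.6% of the bases had a bound gene as their nearest.

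Bound genes had 2.61 intergenic peaks per eligible Mb (interval 2.38 to 2.85), and genes without a promoter peak 0.883 (interval 0.777 to 1). The share with a promoter peak was higher at genes with more intergenic peaks, from 60.1% of 454 genes with 1 (interval 55.6 to 64.5%) to 71.4% of 77 genes with 2 and 82.9% of 35 genes with 3 or more (interval 67.3 to 91.9%). Counted once per gene, the best promoter peaks of the 357 bound genes with an intergenic peak had a median position of 3007, against 5174 over all 9630 bound genes. The property was not restricted to these distances. Of the peaks beyond 50 kb, 70.5% had a nearest gene with a promoter peak (interval 67.2 to 73.5%), and of the intronic peaks 76.3% (interval 74.1 to 78.3%).

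**Figure D2:**
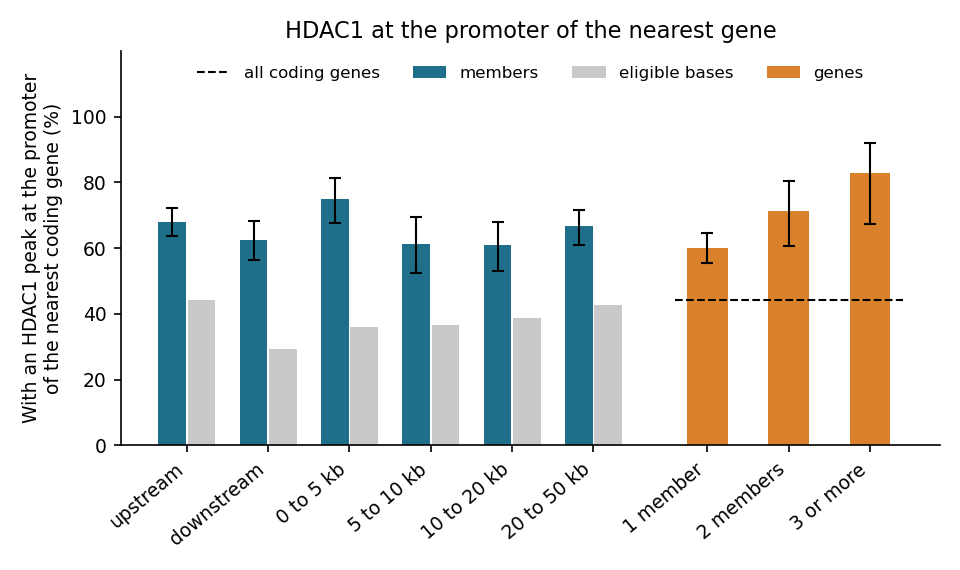
Share with an HDAC1 peak at the promoter of the nearest coding gene, in percent. Blue bars are intergenic peaks near genes by side and by distance, grey bars the eligible bases of the same side or distance, and orange bars genes by their number of intergenic peaks, with 95% Wilson intervals. The dashed line is the share over all coding genes (44.1%). Every blue bar stands above its grey neighbour.

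The 730 peaks were nearest to 566 of 21851 coding genes (2.59%). Most of these genes, 454, had 1 peak, while 77 had 2, 21 had 3, 11 had 4 and 3 had 5. The genes with 5 were Msx1, Tbx3 and Cbx8. Msx1 encodes a homeobox factor of limb mesenchyme, and its 5 peaks lay on both sides, 2 upstream from 2917 bp and 3 downstream up to 6584 bp, with positions from 6481 to 14391. The promoter of Msx1 itself carried a peak of 4150 bp at position 605. Its paralogue Msx2 had 4 peaks, 1 upstream at 3026 bp and 3 downstream up to 10125 bp, with positions from 5224 to 14307. Tbx3, a T-box factor of limb margins, had 2 peaks upstream and 3 downstream between 2920 and 16932 bp, with positions from 10731 to 14329. The 3 downstream peaks lay in the noncoding gene Tbx3os2. All 5 were placed behind the promoter peak of Tbx3 at position 1340. Cbx8, a subunit of Polycomb complex PRC1, had its 5 peaks on the upstream side, 3131 to 15281 bp away.

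Among the genes with 4 peaks, 2 more encode regulators of limb mesenchyme, and their peaks stood on opposite sides. Twist1, a bHLH factor, had 4 downstream peaks between 4379 and 9929 bp, 500 to 750 bp long, at positions 7225, 9440, 9606 and 11537. The 4 peaks of Prrx1, a homeobox factor, lay far upstream, between 42140 and 44790 bp, at positions 6548, 10493, 13063 and 13159. Their GC content of 38.0 to 43.6% was below the lower quartile of all 730 peaks (48.7%). Ptf1a, a factor of pancreas and neural tissue, had 4 downstream peaks within 8087 to 9887 bp, of which 2 lay in the noncoding gene 1810010K12Rik, and no promoter peak. The best placed peak of any of the genes with 4 or more lay 17243 bp downstream of Tmem30b, at position 3196. Oaf, Ddit4, Mrpl23, Actrt2, Psd2 and 1700067P10Rik also had 4 each. Mrpl23 encodes a mitochondrial ribosomal protein, and its 4 peaks lay 19218 to 38618 bp downstream. The 4 peaks of Oaf all lay in the noncoding gene D630033O11Rik.

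**Figure D3:**
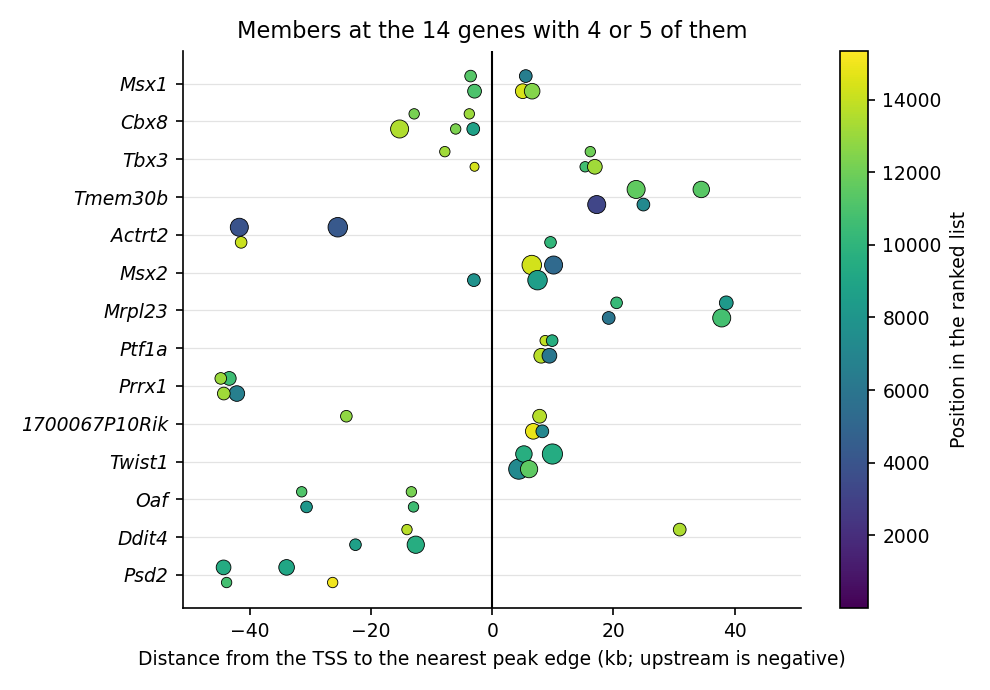
Intergenic HDAC1 peaks around the TSS of the 14 genes with 4 or 5 of them. The horizontal axis gives the distance from the TSS to the nearest peak edge in kb, with upstream negative, each point is a peak with its area scaled to its length, and colour gives its position in the ranked list of 15347 peaks. Points are shifted up and down to part neighbours. Twist1, Ptf1a, Mrpl23 and Tmem30b have downstream peaks alone, while Cbx8, Oaf, Prrx1 and Psd2 have upstream peaks alone.

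When peaks no more than 10 kb apart were joined, 501 (68.6%) stood alone, and the largest group held 7 peaks over 18050 bp of chromosome 14, between and around Zic2 and Zic5, a divergent pair of zinc finger genes. The best placed of the 7 was 6315 bp downstream of Zic2 at position 2550, and Zic2 carried a promoter peak at position 40. Groups of 5 stood at Msx1, Cbx8 and between Gorab and Prrx1. Any other peak of the list lay within 10 kb of 382 peaks (52.3%, interval 48.7 to 55.9%), against 33.3% beyond 50 kb and 55.4% of intronic peaks. The share was 50.5% for all peaks under 800 bp and 48.5% for all peaks.

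Noncoding genes or pseudogenes overlapped 100 of the 730 peaks (13.7%), close to the 14% of all peaks under 800 bp and the 16.1% of all peaks. The rule barred their start sites but not their bodies. By type these were lincRNAs for 48 peaks, processed transcripts for 24 and antisense genes for 23. At Hand2, which encodes a bHLH factor needed for posterior limb identity, the 2 upstream peaks lay in Hand2os1, 6434 and 7684 bp from the TSS.

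Genes of limb development and of the main signalling pathways were counted next. Over 12 lists with 315 coding genes in the annotation, 62 genes (19.7%) had at least 1 intergenic peak, against 2.59% of all coding genes. Among coding genes with a promoter peak the share was 3.71%. The lists gave 100 peaks on 10.9 Mb, or 9.19 per Mb (interval 7.47 to 11.2). Of the 315 genes, 270 carried a promoter peak, and bound genes in general had 2.61 peaks per Mb. Of the 100 peaks, 51 lay upstream. The eligible bases of the listed genes were not split by side, so no preference for a side can be read from this. The median position of the 100 peaks was 11113, against 10833 for all 730.

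The mesenchymal homeobox and bHLH factors had the highest share of genes with a peak, 12 of 28 (42.9%), and the most peaks, 27, at 18.6 per Mb (interval 12.2 to 27.0). Beside Msx1, Msx2, Twist1 and Prrx1 the genes of this list included the bHLH inhibitors Id2, Id3 and Id4 with 2, 2 and 1. The single peaks of Id4 and Tcf12 were the best placed of the list, at positions 1457 and 1735. Twist2, a paralogue of Twist1, had 1 peak, 30512 bp upstream. No intergenic peak near genes was nearest to Snai1, Snai2 or Zeb2.

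Of the transcription factors of the anteroposterior and proximodistal axes, 8 of 26 genes (30.8%) had 14 peaks. Zic2 had 3, at positions 2550, 8827 and 12821. Emx2, a homeobox gene of the proximal limb girdle, had 3 downstream peaks between 8628 and 10728 bp, at positions 3200, 7426 and 10404. Hand2 had 3, at positions 7514, 7627 and 12655, behind a promoter peak at position 16. Meis1, Hand1, Sall1, Osr2 and Etv4 had 1 each. Among factors of limb identity and the dorsoventral axis, 10 peaks fell to 3 of 15 genes, all of the T-box family. Beside Tbx3, the hindlimb factor Tbx4 had 2, both downstream between 28485 and 45435 bp, and the forelimb factor Tbx5 had 3 upstream between 4464 and 37814 bp, with positions 5793, 7754 and 12524.

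Hox genes, which set the segments of the limb, had 9 peaks at 6 of 39 genes. Eligible bases between Hox genes are few (0.368 Mb), and the density of 24.5 per Mb, the highest of the 12 lists, has an interval from 11.2 to 46.5. The best placed was 5223 bp downstream of Hoxc11 at position 3983, and the others stood at positions from 10498 to 14800. Hoxa13, the distal Hox factor of the autopod, had 3 peaks, 1 upstream at 7270 bp and 2 downstream at 4903 and 5503 bp, with a GC content of 33.0 to 43.6%.

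For the Hedgehog pathway, 6 peaks were nearest to a gene of the list, at 5 of 25 genes. This is 20% of the genes, against 2.59% of all coding genes, and 7.80 peaks per Mb (interval 2.86 to 17.0), against 1.57 for all coding genes and 2.61 for bound ones. Of the 25 genes, 21 carried a promoter peak. None of the 6 peaks was nearest to the ligand Shh, the receptor Ptch1 or the effectors Gli1, Gli2 and Gli3. Introns, longer peaks and sites beyond 50 kb are outside the rule, so this shows no absence of HDAC1 there. The 5 genes encode Gpr161, a ciliary receptor that restrains the pathway (2 peaks, positions 12527 and 14546), Hhat, which acylates the ligand (position 8144, 28177 bp upstream), the glypican Gpc3 (position 9419), the secreted protein Scube1 (position 14312) and the co-receptor Gas1 (position 14872, 3392 bp downstream). Their median position of 13420 was late in the list. The Gpr161 peak at position 12527 had a GC content of 76.6%, against 40.9% in its flanks.

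The other lists also lay above 2.59% of genes with a peak, and above the 3.71% of coding genes with a promoter peak. Their counts were small. Except for FGF genes, the density intervals of these lists all held the 2.61 per Mb of bound genes. Except for FGF and WNT genes, they also held the 1.57 per Mb of all coding genes. WNT genes had 9 peaks at 7 of 40 genes (17.5%, 5.58 per Mb), among them the ligands Wnt5a (3051 bp upstream, position 7833) and Wnt7b (43177 bp upstream, position 5572), the receptors Fzd2 and Fzd10 with 2 each, and the effectors Lef1 and Tcf7l2. FGF genes had 7 at 6 of 20 genes (30%, 10.4 per Mb with an interval from 4.17 to 21.4). Spry4, an inhibitor of FGF signalling, had 1 on each side, at positions 6624 and 11610, and the receptor gene Fgfr3 had 1 at position 10861, 26075 bp upstream. BMP and TGF-beta genes had 5 at 4 of 31 genes (12.9%, 4.20 per Mb), which were the ligand gene Bmp2, the antagonist gene Nog, and the intracellular inhibitors Smad7 and Skil. Retinoic acid genes had 3 (6.09 per Mb), at Crabp1, Cyp26a1 and Dhrs3. Cartilage and bone genes had 4 (4.22 per Mb), the best placed at Sp7, an osteoblast factor (position 5350). Muscle precursor genes had 4 (5.43 per Mb), at Pax3, Lbx1 and Eya2. HDAC1 and its corepressors had 2 at 35 genes (5.71%, 3.19 per Mb), at Chd4, the remodeller of NuRD, and Ing1, a subunit of SIN3 complexes, while 34 of these 35 carried a promoter peak.

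Intergenic peaks near genes stood late in the ranked list. Their median position was 10833 of 15347, with quartiles of 8306 and 13018. Only 29 (3.97%) fell in the first 25% of the list and 119 (16.3%) in the next 25%, against 271 (37.1%) and 311 (42.6%) in the steps of 25% that followed. The median was 10897 for peaks beyond 50 kb and 10800 for intronic peaks, while all peaks under 800 bp had a median of 9580.

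Position followed length, which the rule used. Across the 730 peaks Spearman's rho between length and position was -0.53, a description over peaks of 1 list that share its threshold. Distance from the TSS had a rho of -0.0573 with position, and GC content -0.144. Peaks of 100 to 200 bp had a median position of 12970, beside 13006 for all peaks of that length. Peaks of 550 to 750 bp had a median of 7848, beside 5965 for all of that length, 7100 beyond 50 kb and 6676 in introns. The longer intergenic peaks near genes were thus placed behind other peaks of their length. Upstream and downstream peaks had medians of 10802 and 11026.

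**Figure D4:**
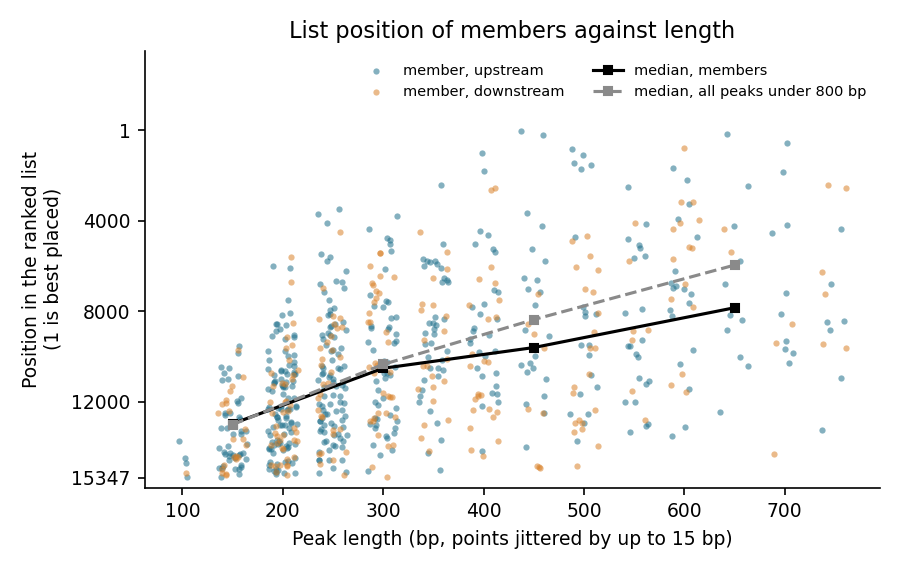
Position in the ranked list (vertical axis, 1 at the top) against peak length in bp for the 730 intergenic HDAC1 peaks near genes, coloured by side. Squares joined by lines are medians over peaks of 100 to 200, 250 to 350, 400 to 500 and 550 to 750 bp, black for these peaks and grey for all peaks under 800 bp. The lines meet at the shortest lengths and part to 7848 and 5965 at the longest.

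The 10 best placed were nearest to Kcnk9 (38), Igsf21 (154), Ccnc (222), Cstad (574), Socs3 (813), Ap3m2 (837), Psmb2 (998), Slc44a3 (1104), Id4 (1457) and Fos (1550). Of these only the Socs3 peak lay downstream, 37987 bp from the gene for an inhibitor of cytokine signalling, and it had a GC content of 66.8%. Fos encodes a subunit of the AP-1 factor, and a peak 17941 bp upstream of it closed these 10. Ap3m2 encodes a subunit of an adaptor complex of vesicle traffic, and its peak lay close, 2178 bp upstream. The best position for a peak under 400 bp was 2425. No promoter peak was found for Ccnc and Slc44a3. For Cstad, Ap3m2, Psmb2, Igsf21, Fos, Socs3, Id4 and Kcnk9 the promoter peak stood behind the intergenic one. The positions of these promoter peaks ran from 2898 at Kcnk9 to 15205 at Cstad. The intergenic peaks here were picked for their early positions, which favours this order. Over all 483 intergenic peaks near genes whose nearest gene had a promoter peak, the promoter peak was ahead for 397 (82.2%). This order was favoured in advance as well. The rule limits the length of the intergenic peaks alone, position followed length, and the best placed promoter peak of each gene was taken.

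The peaks were richer in G and C than the sequence around them, as the list as a whole was. Their median GC content was 53.5%, with quartiles of 48.7 and 60.5% and a range from 31.5 to 82.0%. Windows of the same length 2 kb to both sides had a median of 47.0%, and the eligible genome 42.6%. GC content was above that of the peak's own flanks for 577 of 730 peaks (79.0%, interval 75.9 to 81.8%), below the 86.6% of all peaks under 800 bp and the 89.5% of all peaks. The median was 48.4% beyond 50 kb, 50.1% in introns and 65.2% for short peaks at a coding TSS, and 203 of the 730 peaks (27.8%, interval 24.7 to 31.2%) had the CpG content of a CpG island (GC of 50% or more and an observed to expected CpG ratio of 0.6 or more). This share was 7.72% beyond 50 kb (interval 6.08 to 9.76%), 10.8% in introns (interval 9.35 to 12.4%) and 79.5% at a coding TSS. It was thus above the other distal peaks but below the 58.6% of all peaks under 800 bp and the 66.9% of all peaks. Among named genes, the peaks nearest to Pax3 (79.5% GC), Gpr161 (76.6%), Tcf12 (76.4%), Wnt7b (73.8%) and Fgfr3 (73.5%) were of this kind.

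Repeats covered a median of 7.33% of a peak, against 22.2% of its flanks and 41.6% of the eligible genome. In 28 peaks (3.84%, interval 2.67 to 5.49%) more than 50% of the bases lay in repeats, and in 259 (35.5%) none did. Over all peaks under 800 bp the median was 4.43%, and these shares were 1.29% and 41.0%. Over the whole list they were 0.964% and 32.5%.

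**Figure D5:**
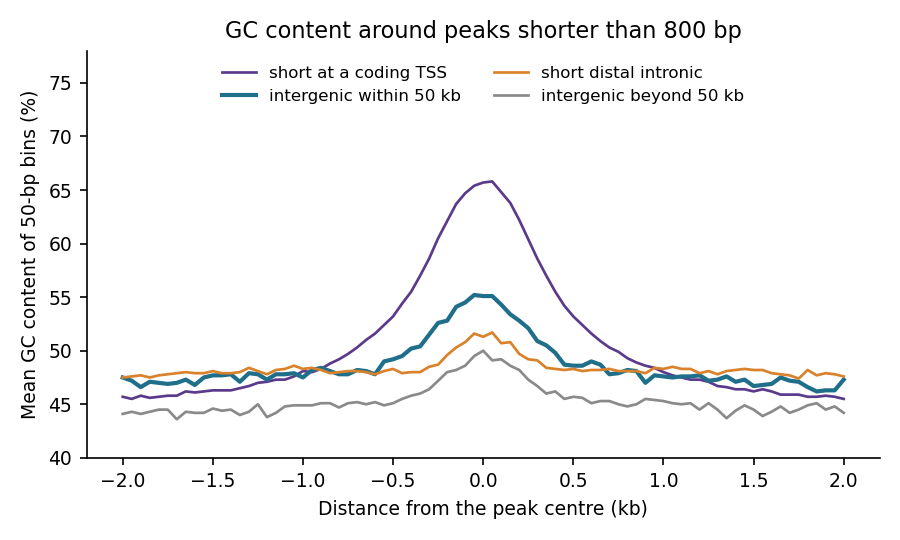
Mean GC content in bins of 50 bp from 2 kb before to 2 kb after the peak centre, in percent, for intergenic peaks near genes (730), intergenic peaks beyond 50 kb (816), intronic peaks (1546) and short peaks at a coding TSS (7159). The vertical axis starts at 40%. The mean at the centre is 55.1% for intergenic peaks near genes, between 51.3% in introns and 65.7% at a TSS, and falls to about the level of the introns at the edges.

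Motifs were searched on both strands in the 400 bases around each peak centre and in 2 windows of 400 bases centred 2 kb to either side. Exact letters were matched, which describes sequence and does not show that a factor binds. The GC box GGGCGGG, read by SP and KLF factors, was in 155 of 730 peaks (21.2%, interval 18.4 to 24.3%) and in 5% of flanking windows (interval 4 to 6.24%). It was in 7.48% of peaks beyond 50 kb, in 11.6% of intronic peaks and in 36.8% of all peaks. The ETS motif CCGGAAG was in 6.71% of peaks and 3.29% of flanks, below the 11.6% of all peaks. Both motifs are rich in G and C, as were the peaks.

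The E-box CAGCTG, read by bHLH factors, was in 207 peaks (28.4%, interval 25.2 to 31.7%) and in 18.6% of flanks (interval 16.7 to 20.6%), beside 34.7% of peaks beyond 50 kb. Of all peaks, 24.1% had it. For another E-box, CAGATG, the shares were 30.1% and 28.2%, for the homeobox motif TAATTA 12.1% and 9.59%, and for the TEAD motif GGAATG 21.5% and 19.7%, with overlapping intervals. Over all peaks CAGATG had a share of 17.9%, TAATTA of 4.74% and GGAATG of 14.8%. The homeobox motif was more frequent beyond 50 kb, at 17.0% (interval 14.6 to 19.8%, against 9.89 to 14.6% near genes). The SOX motif ACAATG was rarer in peaks than in flanks (12.6% against 17.7%), as was the AP-1 motif TGANTCA (8.08% against 12%). The same held for the whole list, with 8.89% against 18.5% for SOX and 4.85% against 10.7% for AP-1.

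Long motifs were rare. REST matches stood in 6 of 730 peaks (0.822%, interval 0.377 to 1.78%) and 1 of 1460 flanking windows, and in 0.378% of all peaks. The share was 0.97% in introns and 0.123% beyond 50 kb. The 6 peaks were nearest to Kcnk9, Psmb2, Igsf21, Swsap1, Cdh22 and C1qa. The Igsf21 peak meant here is not the one at position 154 but another, 36666 bp upstream at position 5772. This peak and the last 3 were named after their values were seen. All 6 lay upstream, and their median position of 5786 was ahead of the 10833 of all 730. The left arm TTCAGCACC, which overlaps the full motif by CAGCACC, was also in 6 peaks and in 0.411% of flanks. CRE matches were in 11 peaks (1.51%, interval 0.843 to 2.68%) and in 1 of 1460 flanks, CTCF matches in 12 (1.64%) and 0.479% of flanks, and NRF1 matches (GCATGCGC) in 12 (1.64%) and 0.753%. Over all peaks the shares were 1.11% for CRE, 0.424% for CTCF and 2.63% for NRF1. The GLI motif was in the windows of 5 peaks (0.685%, interval 0.293 to 1.59%), in 0.137% of flanks and in 0.437% of all peaks. Beyond 50 kb it was in 0.613% of peaks and in introns in 0.388%. The 5 intergenic peaks near genes with it were nearest to Foxp2, Smug1, Pim1, Sertad4 and Fzd10. Of these the WNT receptor gene Fzd10 alone is in a list, though its match lay outside the peak. Of the 5 nearest genes, 4 carried a promoter peak.

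The arm GGACAG, searched after the best placed sequences had been read, was no more frequent in these peaks than beside them, at 30.5% of peaks and 30.8% of flanks. Counted over whole peaks, 8 of 730 had 3 or more copies. They include the Kcnk9, Igsf21 and Ccnc peaks, with 4, 9 and 4, on which the arm was chosen, so that their place at the head of the list is no result. The other 5 stood at positions from 4505 to 10694. In windows of 400 bases, 1.23% of peaks (interval 0.650 to 2.33%) and 0.959% of flanks (interval 0.572 to 1.60%) had 3 or more.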

How the data were processed

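HDAC1 ChIP-seq peaks of E11.5 limb buds were taken from the single list that the authors deposited, a table of peak intervals by chromosome. The authors' reads were aligned to mm10 (Bowtie2 2.2.5 in the submitters' processing notes), and peaks came from CisGenome, run on 4 ChIP samples against input and cut at an estimated false discovery rate of 0.05. The deposited columns are coordinates, with no counts or signal. Lengths are multiples of 50 bp, which limits the precision of an edge. Peak calling on unique and repeated sequence, depth and the threshold decide which weak sites are listed, and the depth behind a peak is not known from the list. The order of the list was taken as the authors' ranking, whose value it does not hold.

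Intervals were taken to count from base 1 and to include their last base. An overlap was 1 bp or more. TSS windows used all basic transcripts of GENCODE M21, and distances, sides and promoters used protein-coding ones. No peak was equally near to 2 genes. Eligible bases excluded unknown bases. Sequence came from the RefSeq GRCm38 genome, whose 21 chromosomes matched the build of the peaks in length. GC, repeats (soft masking) and 14 motifs were counted on it, with each motif matched letter by letter and CTCF by a consensus. The members, 12 gene lists and motifs were chosen with earlier results of these data known.

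Named were the 10 best placed peaks, the genes with most peaks down to 10 genes with ties, up to 4 best placed peaks per list, and peaks with a GLI or REST motif at a listed gene. Other names were added after their values were seen, as were GGACAG and the setting of 5 kb or more from the TSS. Overlaps, distances, sides and eligible bases were tested on simulated data and equalled base-by-base counts in all cases (2000 of 2000 overlap calls). Python 3.11.15, numpy 2.4.6, pandas 2.3.3, scipy 1.17.1 and matplotlib 3.10.9 were used.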

Additional observations from a re-analysis of the deposited data

How the results depend on the processing

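No paired analysis was possible because the single list carries no replicate numbers and no result came from a test, and leaving out a replicate was not possible for the same reason. Of 62 values recomputed under alternatives for the 6 main results, 46 moved by less than their interval or, for the count, by less than 1.5 times. The 730 peaks became 931 with coding TSS windows alone, 630 with the bodies of all genes barred, and 148 in the first 7673 peaks of the list. In those 148 peaks the median distance was 16958 bp, the median position 5632, the GC content 55.2% and the promoter share 52.0%, where promoter peaks also had to be in those 7673. With a limit of 25 kb, 69.6% lay upstream at a median distance of 9111 bp, and with 100 kb the median was 24493 bp and the GC content 52.9%. With 1 TSS per gene 69.9% lay upstream. With coding TSS windows alone the GC content was 54.5%. The promoter share was 62.0% after peaks within 1000 bp were merged, 73.3% with promoters of 5 kb on both sides and 62.2% with 50% of the promoter peak inside the window. Without peaks under 5 kb from the TSS, a setting chosen after seeing the data, 61.6% of 578 lay upstream at a median of 20994 bp. The cause was not tested. The upstream shares at these settings are given without the matching share of eligible bases, which changes with distance. Within 5 kb those bases came to 42 Mb upstream and 8.31 Mb downstream. From 20 to 50 kb they came to 145 and 76.9 Mb. Of the motifs, CAGATG and TEAD had higher shares in peaks than in flanks by 1.99 and 1.78 percentage points, which turned to -1.10 and -1.78 in windows of 800 bp. The GC box difference of 16.2 points became 10.8 and 20.3 in windows of 200 and 800 bp.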
